A study of Homo sapiens with 3 samples.

Results

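Transcripts of 9 genes of the eye field and the anterior neural plate were followed in single cells of a neural induction experiment: PAX6, SIX3, SIX6, RAX, LHX2, FEZF1, FEZF2, HESX1 and OTX2. They were taken by symbol from the 3 deposited count matrices, which together list 31113 symbols, and all 9 were found. The cells are H9, an established human embryonic stem cell line, handled with the medium mTeSR and the STEMdiff SMADi Neural Induction Kit, a commercial kit that steers pluripotent cells to neural progenitors by blocking SMAD signalling. Cells were captured in droplets by inDrop, following TruDrop, so that transcripts carry a barcode for their cell and a unique molecular identifier (UMI) for the molecule. There are 3 groups of 1 library each, labelled day 0, day 2 and day 6 of differentiation to neural progenitor cells. Line, kit and medium are given alike for all 3 libraries, the letters A, B and A after the days are not explained, and a single line with no repeated culture gives no measure of how cultures vary.

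All 9 genes encode transcription factors. PAX6, RAX, SIX3, SIX6 and LHX2 are homeobox genes of the eye field, the patch of the anterior neural plate that forms the eyes, where they act as a network that specifies retinal progenitors, and several of them go on to pattern the forebrain. FEZF1 and FEZF2 are zinc finger repressors of the early forebrain, HESX1 is a homeobox repressor of the anterior neural plate and the pituitary primordium, and OTX2 is a homeobox factor needed for forebrain and midbrain; OTX2 and HESX1 transcripts are also known from pluripotent stem cells.

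The filter asked for 1000 UMIs and 500 genes per cell and allowed a mitochondrial share of 25%. It left 2290, 2419 and 4180 cells (labelled day 0, day 2 and day 6), with 28341741, 20626135 and 41268018 UMIs and a median of 8770, 3814 and 4429 UMIs per cell. Levels are summed UMIs of a gene per 1000000 summed UMIs of the kept cells (CPM), with exact Poisson 95% intervals, so that 3 UMIs correspond to 0.106, 0.145 and 0.0727 CPM. Kept cells of labelled day 6 shared 72 barcodes with labelled day 2 and 82 with labelled day 0, and labelled day 2 shared 38 with labelled day 0. Markers went against the day labels: POU5F1, the pluripotency factor OCT4, had 2.22 CPM in labelled day 0, 1229 CPM in labelled day 2 and 268 CPM in labelled day 6. The 6 markers of pluripotent cells summed to 88.7, 3026 and 732 CPM, and each was highest in labelled day 2. DPPA4, which made up most of the sum in labelled day 0, had 75.2, 413 and 249 CPM. L1TD1 had 8.82, 227 and 72.6 CPM, ESRG 0.282, 521 and 135 CPM, and TDGF1 0, 570 and 6.69 CPM. NANOG had 2.19, 66.6 and 0.945 CPM, so that it was lower in labelled day 6 than in labelled day 0. The 6 neuron markers summed to 193, 47.4 and 206 CPM, but they differed in order. MAP2 had 174, 24.4 and 96.3 CPM, DCX 9.53, 6.74 and 59.9 CPM, and STMN2 3.28, 7.85 and 41.9 CPM. ELAVL4 had between 5.82 and 7.95 CPM, and TUBB3 and NEUROD1 at most 1.70 CPM. Because POU5F1 and the pluripotency sum went against the days, the libraries are called by their labels, and no difference is described as a change with time. In a clustering of all kept cells, 2, 38 and 159 cells fell into clusters made up mostly of another library, and results that rest on them are given with and without them. Mesoderm and endoderm markers summed to between 1.14 and 2.98 CPM per list and library, and no marker on those lists reached 10 CPM. Intervals cover counting error only, and with 1 library per label there is no test between libraries.

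Positions are those of GENCODE 29 (GRCh38). PAX6 is at chr11:31784779-31818062, SIX3 at chr2:44941898-44946077, SIX6 at chr14:60508951-60512850, RAX at chr18:59267035-59274086, LHX2 at chr9:124001670-124033301, FEZF1 at chr7:122301394-122310691, FEZF2 at chr3:62369681-62374324, HESX1 at chr3:57197838-57227606 and OTX2 at chr14:56799905-56810479. RefSeq promoter windows (GRCh38.p14, 250 bases before to 50 after a start, 300 bases) were at hand for 7 members, with 18 windows in all. The windows below belong to FEZF1 and HESX1, the members highest in the library labelled day 6, and to PAX6 and LHX2, which were highest in that labelled day 0. They lie on the minus strand at chr7:122304701-122305000 (FEZF1), chr3:57227566-57227865 and chr3:57199929-57200228 (HESX1) and chr11:31817912-31818211 (PAX6), and on the plus strand at chr9:124011518-124011817 (LHX2). Capitals mark CCAAT or its reverse complement ATTGG, and the palindrome TAATTA, a core that many homeodomains bind.
FEZF1, 1 of 2: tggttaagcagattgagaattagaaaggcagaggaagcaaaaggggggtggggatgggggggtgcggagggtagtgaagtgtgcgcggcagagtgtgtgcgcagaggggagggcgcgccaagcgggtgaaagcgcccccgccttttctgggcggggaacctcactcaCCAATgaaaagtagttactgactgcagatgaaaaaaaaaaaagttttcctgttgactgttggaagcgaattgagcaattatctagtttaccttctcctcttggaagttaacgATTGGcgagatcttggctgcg
HESX1, outer start: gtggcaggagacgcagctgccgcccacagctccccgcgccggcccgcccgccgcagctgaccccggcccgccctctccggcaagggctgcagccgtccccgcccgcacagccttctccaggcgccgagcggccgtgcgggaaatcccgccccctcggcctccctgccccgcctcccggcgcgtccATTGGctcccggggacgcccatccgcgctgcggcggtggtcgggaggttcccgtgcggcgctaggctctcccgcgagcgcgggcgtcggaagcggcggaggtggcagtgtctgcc
HESX1, inner start: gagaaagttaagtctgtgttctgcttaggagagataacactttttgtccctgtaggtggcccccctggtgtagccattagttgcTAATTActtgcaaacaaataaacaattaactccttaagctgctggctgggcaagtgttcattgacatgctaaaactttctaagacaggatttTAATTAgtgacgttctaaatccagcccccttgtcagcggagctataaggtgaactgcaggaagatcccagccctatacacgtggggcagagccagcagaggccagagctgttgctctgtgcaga
PAX6, 1 of 9: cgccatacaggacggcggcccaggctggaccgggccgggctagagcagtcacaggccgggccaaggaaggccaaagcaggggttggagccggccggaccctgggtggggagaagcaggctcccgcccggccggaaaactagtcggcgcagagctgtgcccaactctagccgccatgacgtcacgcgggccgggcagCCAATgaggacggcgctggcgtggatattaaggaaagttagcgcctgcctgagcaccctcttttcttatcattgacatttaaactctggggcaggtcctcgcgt
LHX2: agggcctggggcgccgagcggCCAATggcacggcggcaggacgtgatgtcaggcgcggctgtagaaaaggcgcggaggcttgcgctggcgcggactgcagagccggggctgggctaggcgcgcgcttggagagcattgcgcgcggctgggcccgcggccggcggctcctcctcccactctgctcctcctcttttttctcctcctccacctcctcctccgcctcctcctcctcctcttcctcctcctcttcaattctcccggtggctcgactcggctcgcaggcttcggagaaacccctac
TAATTA was found in 1 of the 18 windows, that of the inner HESX1 start, with copies beginning 166 and 74 bases before the start, and 4.84% of the 35116 promoter windows in the table hold it. CCAAT on either strand was in 9 of the 18 windows and in 34.6% of all windows, GGGCGG on either strand in 9 of 18 and 45.0%, and TAATCC, a sequence bound by OTX2-type homeodomains, in 0 of 18 and 6.36%. By gene, CCAAT was found in 6 of 7 and GGGCGG in 4 of 7. PAX6 has 9 of the 18 windows, and the 2 FEZF1 windows overlap and share a CCAAT match, so windows are not independent. In the windows shown, no capitalised match overlapped another. The HESX1 windows also differed in CpG content, with 43 CpG dinucleotides at the outer start and 3 at the inner one, against 14 at the FEZF1 start shown, 24 at that of PAX6, 30 at that of LHX2 and a median of 14 over all windows. A match describes these letters only, and the count files do not say which start was used.

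Across the libraries the members fell into 3 patterns. PAX6, SIX3, RAX, LHX2 and FEZF2 were highest in the library labelled day 0, FEZF1 and HESX1 were highest in that labelled day 6, and OTX2 stood nearly level in both and lower in labelled day 2. SIX6 was detected only at trace level in all 3.

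PAX6, a paired-domain and homeodomain factor of eye and cortex progenitors, reached 176 CPM in labelled day 0, with an interval of 171 to 180, but 6.64 CPM (5.58 to 7.85) in labelled day 2 and 27.9 CPM (26.3 to 29.6) in labelled day 6. SIX3, a repressor that keeps WNT signals out of the anterior forebrain, had 82.2 CPM (78.9 to 85.6) in labelled day 0, 4.12 CPM (3.29 to 5.10) in labelled day 2 and 26.2 CPM (24.7 to 27.8) in labelled day 6. Both were thus highest in labelled day 0, intermediate in labelled day 6 and lowest in labelled day 2, with intervals that did not overlap. RAX, the retinal homeobox gene, had 34.6 CPM (32.5 to 36.9) in labelled day 0, 1.16 CPM (0.745 to 1.73) in labelled day 2 and 1.91 CPM (1.52 to 2.39) in labelled day 6. Its level was far above the others in labelled day 0, and its intervals in labelled day 2 and labelled day 6 overlapped in part. LHX2, a LIM-homeodomain factor of optic vesicle and cortex, had 82.4 CPM (79.0 to 85.8) in labelled day 0, 6.98 CPM (5.89 to 8.22) in labelled day 2 and 13.8 CPM (12.7 to 15.02) in labelled day 6, so that its order was that of PAX6. SIX6, a relative of SIX3 that acts in retina and pituitary, was counted with 54, 13 and 3 UMIs, which is 1.91, 0.630 and 0.0727 CPM. The last value is the level of 3 UMIs, and SIX6 lies wholly within C14orf39, annotated on the other strand over 3900 bases with 30.3, 13.6 and 11.8 CPM, so that without a stated strand setting its few UMIs cannot be assigned with certainty.

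FEZF1 and FEZF2 are close relatives that differed in their order. FEZF1 had 160 CPM (155 to 165) in labelled day 0, 29.4 CPM (27.1 to 31.9) in labelled day 2 and 424 CPM (417 to 430) in labelled day 6. FEZF2, best known for specifying subcortical projection neurons of the cortex, had 30.1 CPM (28.1 to 32.2), 2.18 CPM (1.59 to 2.92) and 6.08 CPM (5.35 to 6.88). The order of FEZF1 was labelled day 6, day 0, day 2 from high to low, and that of FEZF2 labelled day 0, day 6, day 2. FEZF1 overlaps the antisense gene FEZF1-AS1 over 6420 bases; that gene had 57.3, 7.56 and 46.6 CPM, and reads of the pair cannot be told apart without a strand setting.

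HESX1 had 16.3 CPM (14.9 to 17.9) in labelled day 0, 22.9 CPM (20.9 to 25.04) in labelled day 2 and 99.3 CPM (96.3 to 102) in labelled day 6. It was the only member that was not lowest in labelled day 2, SIX6 aside. OTX2 had 86.1 CPM (82.7 to 89.6), 30.6 CPM (28.3 to 33.1) and 105 CPM (102 to 108). Its levels in labelled day 6 and labelled day 0 were the closest of any member between those libraries.

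**Figure D1:**
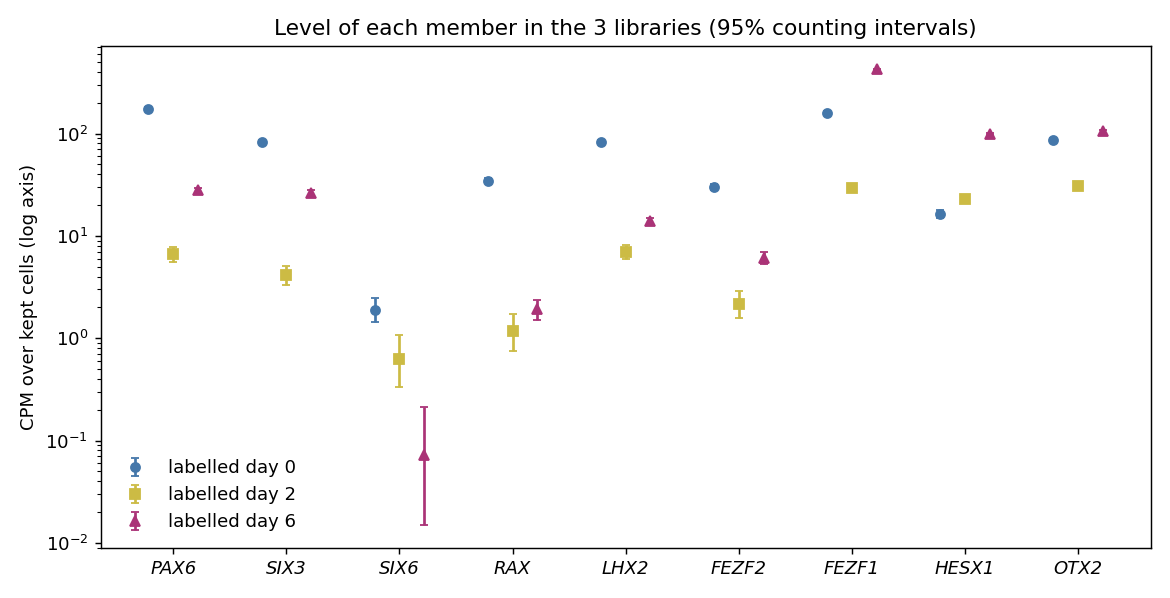
CPM over kept cells of the 9 members (log axis) in labelled day 0, labelled day 2 and labelled day 6, with exact Poisson 95% intervals of 1 library each. FEZF1 at 424 CPM and HESX1 at 99.3 CPM stand highest in labelled day 6, PAX6 at 176 CPM stands highest in labelled day 0, and SIX6 lies below 2 CPM throughout.

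The library labelled day 6 was compared with that labelled day 2 by the quotient of the levels, with an exact conditional binomial 95% interval. A member was counted when 1 or both of the libraries reached 10 CPM, and was called higher at a ratio of at least 2 and lower at a ratio of at most 0.5. PAX6, SIX3 and LHX2 were counted through labelled day 6 alone, so they could not be called lower. The members were chosen with earlier results of these data known, so the counts of calls here and below are descriptions. Of 6 counted members 5 were higher and 0 were lower, against 8.3% higher and 6.32% lower of 10178 genes, and the median log2 ratio was 2.09 over the members and 0.12 over all genes. FEZF1 was 14.4-fold higher (13.3 to 15.6) in labelled day 6, SIX3 6.36-fold (5.10 to 8.03), HESX1 4.34-fold (3.95 to 4.78), PAX6 4.203-fold (3.52 to 5.06) and OTX2 3.43-fold (3.15 to 3.73). LHX2 missed the 2-fold limit with a ratio of 1.98 (1.65 to 2.40). RAX at 1.65 (1.03 to 2.72), FEZF2 at 2.79 (2.02 to 3.92) and SIX6 at 0.115 (0.0211 to 0.420) were under the minimum level in both libraries. Without the cells that clustered with another library, the log2 ratio of SIX3 was 4.15 in place of 2.67 and that of LHX2 0.51 in place of 0.99. FEZF2 then had 0.801 CPM (32 UMIs) in labelled day 6 and 0.588 CPM (12 UMIs) in labelled day 2, with intervals that overlapped, and SIX6 had 1 and 3 UMIs.

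Between the libraries labelled day 6 and day 0 the members divided. Of 8 counted members 2 were higher in labelled day 6 and 5 were lower, against 9.94% and 6.09% of 10078 genes, with a median log2 ratio of -1.98 beside 0.11 over all genes. RAX and FEZF2 were counted through labelled day 0 alone, so they could not be called higher. HESX1 was 6.08-fold higher (5.52 to 6.71) in labelled day 6 and FEZF1 2.65-fold higher (2.57 to 2.74). RAX stood at 0.0552 times its level in labelled day 0 (0.0434 to 0.0695), PAX6 at 0.159 times (0.149 to 0.170), LHX2 at 0.168 times (0.153 to 0.184), FEZF2 at 0.202 times (0.175 to 0.233) and SIX3 at 0.319 times (0.297 to 0.343). OTX2 was 1.22-fold higher (1.16 to 1.28), short of the 2-fold limit. The eye field factors above the minimum, RAX, PAX6, LHX2 and SIX3, were thus lower in labelled day 6, whereas HESX1 and FEZF1 were higher. Without the cells of other clusters, the log2 ratio was -5.23 in place of -2.31 for FEZF2, -4.23 in place of -2.57 for LHX2 and -5.15 in place of -4.18 for RAX.

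Labelled day 2 was lower than labelled day 0 in nearly all members. Of 8 counted members 0 were higher and 7 were lower, against 10.1% and 10.2% of 10160 genes, and the median log2 ratio was -3.67 beside 0.0059 over all genes. PAX6, SIX3, RAX, LHX2 and FEZF2 were counted through labelled day 0 alone, so they could not be called higher. RAX stood at 0.0336 times its level in labelled day 0 (0.0214 to 0.0503), PAX6 at 0.0378 times (0.0317 to 0.0449), SIX3 at 0.0501 times (0.0399 to 0.0623), FEZF2 at 0.0725 times (0.0525 to 0.0979), LHX2 at 0.0848 times (0.0711 to 0.100), FEZF1 at 0.184 times (0.169 to 0.200) and OTX2 at 0.356 times (0.325 to 0.388). HESX1 alone was above its level in labelled day 0, by 1.40-fold (1.23 to 1.60), within the 2-fold limits. Without the cells of other clusters, the log2 ratio was -5.96 in place of -4.32 for SIX3, -5.68 in place of -3.79 for FEZF2, -4.74 in place of -3.56 for LHX2 and -5.35 in place of -4.72 for PAX6. The 3 comparisons share libraries, so their values are not independent of each other.

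**Figure D2:**
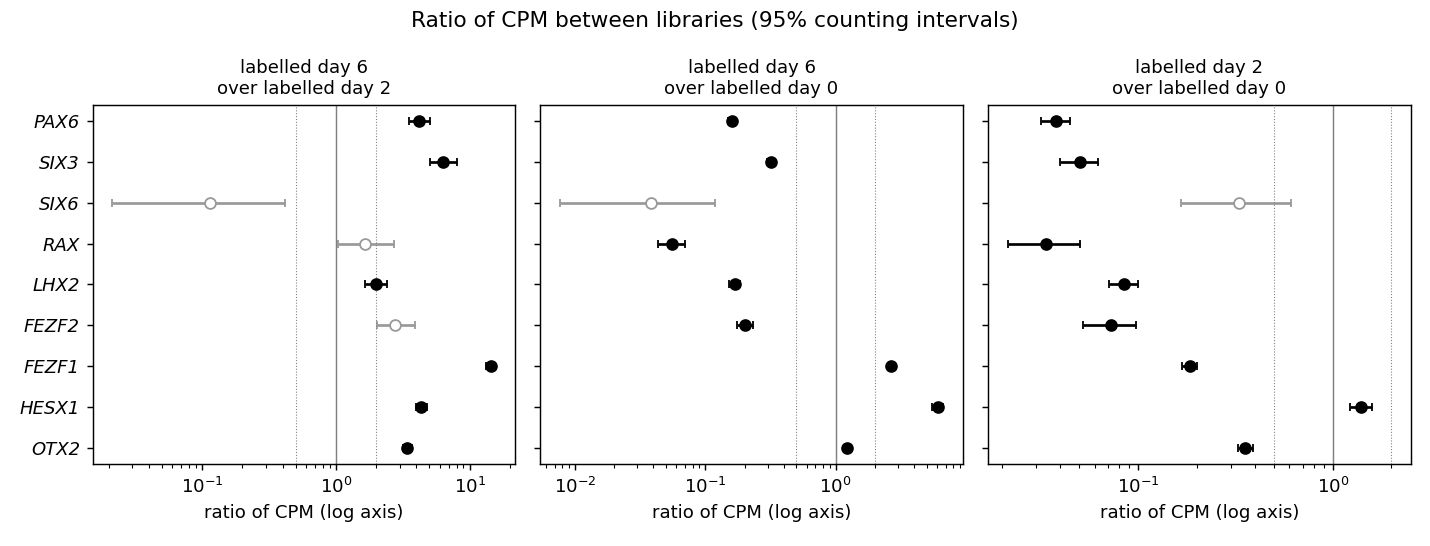
Ratio of CPM of each member (log axis) for labelled day 6 over day 2, labelled day 6 over day 0 and labelled day 2 over day 0, with 95% counting intervals; dotted lines mark 2-fold and 0.5 times, and open grey points had under 10 CPM in both libraries. FEZF1 and HESX1 lie right of 1 in both comparisons of labelled day 6, at 14.4 and 4.34 over day 2 and at 2.65 and 6.08 over day 0, whereas PAX6, SIX3 and LHX2 change side between them.

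The share of kept cells with at least 1 UMI of a member rises with depth per cell, so each share is given as counted and after every kept cell was thinned to 1000 UMIs. FEZF1 was detected in 62.1% of cells of labelled day 0, 16.7% of labelled day 2 and 77.8% of labelled day 6, and after thinning in 15.8%, 3.43% and 37.2%. HESX1 was detected in 15.4%, 13.7% and 44.3% of cells, and after thinning in 1.40%, 2.15% and 11%. OTX2 was found in 52.4%, 18.5% and 48.0%, and after thinning in 9.74%, 3.76% and 12.0%. At equal depth FEZF1 and HESX1 were thus found most often in labelled day 6. The counted shares of OTX2 and HESX1 did not follow their CPM in every library, and no order was read from them. PAX6 was detected in 63.7%, 3.39% and 13.8% of cells, and after thinning in 17.9%, 0.827% and 2.39%. SIX3 was detected in 47.8%, 1.78% and 14.7%, LHX2 in 44.1%, 2.98% and 5.38%, RAX in 25.9%, 0.909% and 1.34%, and FEZF2 in 17.6%, 0.951% and 1.99%. Their thinned shares in labelled day 0 were between 3.28% for FEZF2 and 8.91% for LHX2, and at most 2.39% in the other libraries. For SIX6 the counted shares were 1.83%, 0.455% and 0.0718%.

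Free RNA in droplets can give UMIs to cells that do not express a gene. Its size for the members was not measured, since genes that no cell of a culture makes cannot show it. As a reference for stray counts only, 13 genes of tissues outside the culture were read, such as ALB, INS and SFTPC. Their median share was 0.131%, 0.0827% and 0.0718% of cells in labelled day 0, labelled day 2 and labelled day 6, and 0 after thinning. The highest was that of ACTA1, skeletal muscle actin, at 7.34%, 4.75% and 7.82%, and the next that of MYH6 at 1.57%, 0.785% and 0.694%. ACTA1 had 17.3, 7.85 and 17.9 CPM, above the 10 CPM minimum in labelled day 0 and labelled day 6. Whether cells of the culture make it was not tested. Against ACTA1, the shares of PAX6, SIX3, SIX6, RAX, LHX2 and FEZF2 in labelled day 2, those of SIX6, RAX, LHX2 and FEZF2 in labelled day 6 and that of SIX6 in labelled day 0 did not stand above the reference gene. Against MYH6, the shares of SIX6 in labelled day 2 and labelled day 6 did not. After thinning ACTA1 was found in 1.62%, 1.07% and 1.41% of cells, so that the thinned share of HESX1 in labelled day 0, 1.40%, did not stand above it either, and that of LHX2 in labelled day 6, 1.56%, lay close to it.

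The UMIs of the members were spread over cells in different ways. For each member an expected share was computed for UMIs falling on cells in proportion to each cell's depth. In labelled day 0 the observed share over the expected one ran from 0.838 for RAX to 0.978 for OTX2 apart from 0.794 for SIX6 and 0.633 for FEZF2. FEZF2 was thus the member farthest from even spread by this quotient. Its richest 23 cells held 23.4% of its 853 UMIs, against 12.6% of 982 for RAX and 7.36% of 4974 for PAX6. For HESX1 such cells held 17.7% of 463 UMIs and for SIX6 64.8% of 54, and fewer UMIs in themselves raise this share. In labelled day 2 the quotient was 0.964 for OTX2, 0.900 for FEZF1 and 0.896 for HESX1, but 0.647 for PAX6, 0.543 for LHX2, 0.532 for SIX3 and 0.525 for FEZF2.

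In labelled day 6, the observed share was 1.01 times the expected one for FEZF1, 0.989 times for HESX1 and 1.04 times for OTX2. The same quotient was 0.756 for SIX3, 0.726 for RAX, 0.674 for PAX6, 0.463 for LHX2 and 0.356 for FEZF2. FEZF1, HESX1 and OTX2 were thus found in close to the number of labelled day 6 cells computed from depth. LHX2 and FEZF2 were found in fewer cells with more UMIs each. The computed numbers use a single rate per member for the library. In its own cluster with a median of 2134.5 UMIs per cell, FEZF1 had 575 CPM, HESX1 132 CPM and OTX2 153 CPM. In that with a median of 14202 UMIs they had 402, 95.7 and 95.6 CPM. Higher levels in shallow cells raise the share of cells with a UMI, so a quotient near 1 does not show even spread. Spread within clusters was not tested. The 1% of cells richest in a member, 42 cells in labelled day 6, held 82.9% of the 251 FEZF2 UMIs, 82.3% of the 79 RAX UMIs and 59.0% of the LHX2 UMIs. For PAX6 they held 32.6%, for SIX3 22.6%, for HESX1 9.56%, for OTX2 8.61% and for FEZF1, with 17487 UMIs, 7.83%. All 3 SIX6 UMIs lay in such cells. Fewer UMIs in themselves raise this share, so it does not compare members of unlike level. A single cell held 44 of the 571 LHX2 UMIs. FEZF1 itself was rich in single cells of labelled day 6: 1240 of 4180 cells had 5 or more of its UMIs, with a mean of 5.37 over the cells that had any and at most 45.

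**Figure D3:**
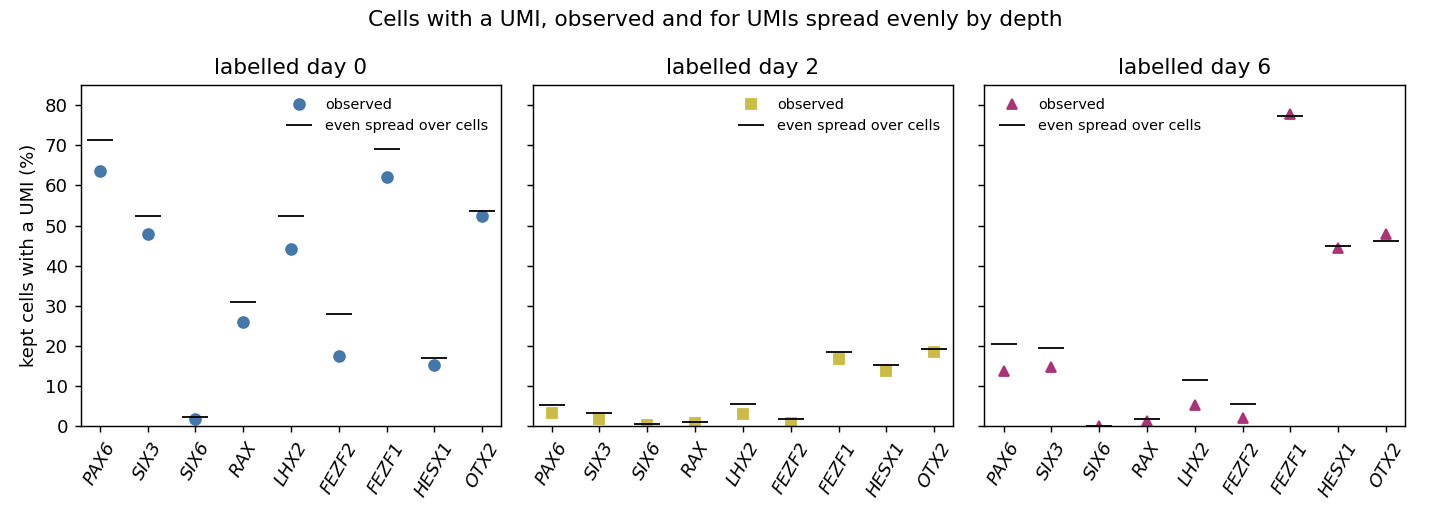
Percent of kept cells with at least 1 UMI of each member in the 3 libraries (coloured points), beside the percent given if the same UMIs fell on cells in proportion to depth (black bars). In labelled day 6 the points of FEZF1, HESX1 and OTX2 lie on their bars, at 77.8%, 44.3% and 48.0%, whereas those of PAX6, LHX2 and FEZF2 lie below theirs.

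A small number of cells that clustered with another library carried most LHX2 and FEZF2 UMIs of the libraries labelled day 2 and day 6. In labelled day 2 the 38 cells that clustered elsewhere held 382 CPM of LHX2 (303 to 475), 274 CPM of SIX3 (208 to 354), 231 CPM of PAX6 (171 to 305), 156 CPM of FEZF2 (107 to 219) and 47.2 CPM of SIX6 (22.6 to 86.7). The other 2381 cells held 3.09, 1.32, 4.31, 0.588 and 0.147 CPM. The 38 cells contributed 10 of the 13 SIX6 UMIs and 58 of the 85 SIX3 UMIs of the library. Without these cells FEZF1, HESX1 and OTX2 stood at 26.8, 22.4 and 29.98 CPM in the library, against 29.4, 22.9 and 30.6 CPM with them.

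Of the 159 such cells of labelled day 6, 94 were in the main cluster of labelled day 0 and 12 in its other cluster, and 45 and 8 in the clusters of labelled day 2. The 94 cells held 390 of the 395 LHX2 and 215 of the 219 FEZF2 UMIs of the 159. They had 352 CPM of LHX2 and 194 CPM of FEZF2, against 81.2 and 29.8 CPM in labelled day 0 cells of the same cluster. All 159 cells together held 303 CPM of LHX2 (274 to 335), 241 CPM of PAX6 (215 to 269), 168 CPM of FEZF2 (147 to 192) and 111 CPM of SIX3 (93.2 to 130). The other 4021 cells of labelled day 6 held 4.40, 21.0, 0.801 and 23.5 CPM of the same genes. FEZF1 and HESX1 went the other way, with 218 CPM (193 to 245) and 28.4 CPM (20.0 to 39.2) in the 159 cells and 430 CPM (424 to 437) and 102 CPM (98.5 to 105) in the other cells, and OTX2 was alike at 108 and 105 CPM. Without the 159 cells, FEZF2 in labelled day 6 was therefore 0.801 CPM in place of 6.08, LHX2 4.40 in place of 13.8 and RAX 0.976 in place of 1.91, whereas PAX6 was 21.0 in place of 27.9 and SIX3 23.5 in place of 26.2. Most PAX6 and SIX3 UMIs of labelled day 6 thus lay in cells of its own clusters, 838 of 1152 and 938 of 1082, and most LHX2 and FEZF2 UMIs did not, with 176 of 571 and 32 of 251. The clustering used 7 of the members, all but SIX3 and SIX6, among its variable genes, so the contrast between these cells and the rest was partly built in and is given as a description. Leaving out the 5% of cells with the highest doublet scores, or the barcodes shared between libraries, gave log2 ratios of labelled day 6 over labelled day 0 of -2.30 and -2.31 for FEZF2 and of -2.51 and -2.56 for LHX2, close to those of all kept cells. Doublet scoring called too few cells to have worked, so these ratios cannot decide whether the cells that clustered elsewhere were doublets, which was not tested.

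**Figure D4:**
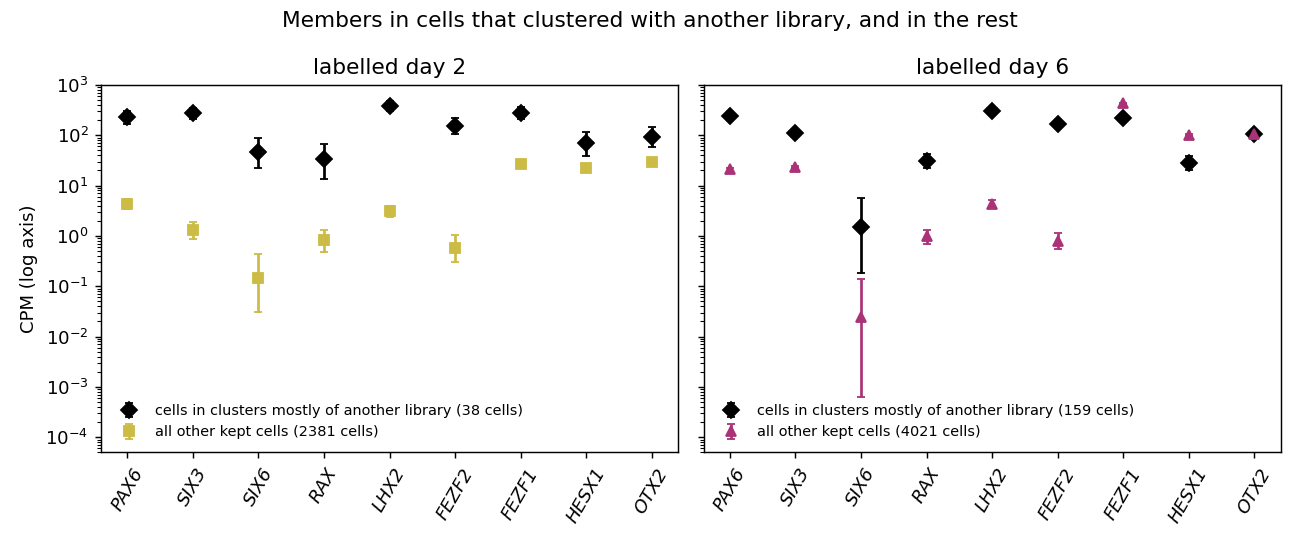
CPM of each member (log axis) with exact Poisson 95% intervals in the 38 cells of labelled day 2 and 159 cells of labelled day 6 found in clusters of another library (black), and in the remaining kept cells (coloured). In labelled day 6 the black points lie above the coloured ones for LHX2 (303 against 4.40 CPM) and FEZF2 (168 against 0.801), below them for FEZF1 (218 against 430) and HESX1 (28.4 against 102), and level for OTX2 (108 against 105).

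Cells with under 5% of UMIs from mitochondrially encoded genes, 463 in labelled day 0, 1185 in labelled day 2 and 1648 in labelled day 6, were read apart from the rest. The clusters with a median mitochondrial share under 5% had median depths between 2134.5 and 2546.5 UMIs, and the other clusters between 11465 and 14202 UMIs. In labelled day 0, FEZF1 had 246 CPM in the low mitochondrial cells and 154 CPM in the others, OTX2 135 and 82.8 CPM, RAX 58.5 and 33.0 CPM, and PAX6 219 and 172 CPM. In labelled day 6, FEZF1 had 574 CPM (555 to 594) in them and 399 CPM (393 to 406) in the other cells, HESX1 132 and 94.04 CPM, and OTX2 151 and 97.4 CPM. PAX6 was lower in them, with 16.7 CPM (13.6 to 20.4) against 29.7 CPM (28.0 to 31.6), and SIX3 was alike at 24.2 and 26.6 CPM. In labelled day 2, FEZF1 had 37.1 CPM (32.0 to 42.7) in them and 26.9 CPM (24.4 to 29.6) in the other cells, and OTX2 41.2 and 27.1 CPM. HESX1 had 18.8 CPM (15.3 to 22.98) against 24.2 CPM (21.8 to 26.8) there, the opposite order to that in labelled day 6, with overlapping intervals. FEZF1 and OTX2 were thus higher in such cells of all 3 libraries. The totals behind CPM include mitochondrial UMIs, so a low mitochondrial share in itself raises the CPM of other genes. Levels over other totals were not computed for this split.

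After thinning, the 516 cells of labelled day 0 with a UMI of NR2F2, a nuclear receptor, held 56.2 CPM of RAX (37.6 to 80.7) and the 1774 without held 33.8 CPM (25.8 to 43.5), so that the intervals overlapped. Within labelled day 6 the members were read in cells with and without a POU5F1 UMI, likewise after thinning. FEZF1 had 516 CPM (474 to 561) in the 1076 cells with POU5F1 and 480 CPM (456 to 505) in the 3104 without, and OTX2 136 and 131 CPM. LHX2 had 3.72 CPM (1.01 to 9.52) in cells with POU5F1 and 24.5 CPM (19.3 to 30.7) in those without, and HESX1 96.7 CPM (79.0 to 117) and 127 CPM (115 to 140). When the cells of other clusters were left out, LHX2 was found together with POU5F1 in 124 cells where 130 were expected from both shares within bins of depth.

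Several members were often counted in 1 cell of labelled day 0, the library with the deepest cells. The median cell had UMIs of 3 members in labelled day 0, 0 in labelled day 2 and 2 in labelled day 6, and the most in 1 cell were 8, 9 and 8. At least 3 members were found in 62.8%, 4.71% and 36.0% of cells, at least 5 in 29.9%, 0.744% and 5.05%, and no member in 7.51%, 62.0% and 12.4%. After thinning, no member was found in 50.3%, 89.6% and 47.1% of cells, so that at equal depth this share was lower in labelled day 6 than in labelled day 0. The thinned median was 0, 0 and 1 members, the thinned mean 0.689, 0.118 and 0.672 members, and at least 3 members were found in 3.19%, 0.248% and 1.48% of cells. At equal depth the means of labelled day 0 and labelled day 6 were thus nearly alike, but at least 3 members stayed more frequent in labelled day 0. The like means joined opposite orders. FEZF1 was found in 37.2% of thinned cells of labelled day 6 and 15.8% of labelled day 0. HESX1 and OTX2 also had the higher thinned share in labelled day 6, and all other members in labelled day 0. Of the 211 cells of labelled day 6 with at least 5 members, 164 remained when the cells of other clusters were left out, and of the 18 in labelled day 2, 4 remained.

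Joint detection of pairs of members was set against the number of cells expected from both shares within 10 bins of UMIs per cell. In labelled day 0 all 36 pairs had at least 5 expected cells, and the median of observed over expected was 1.04, with a range from 0.729 to 1.58. RAX and LHX2 were found together in 397 cells where 314 were expected, a quotient of 1.26, and PAX6 with RAX in 495 where 430 were expected, a quotient of 1.15. FEZF2 went the other way with RAX, in 94 cells where 129 were expected (0.729), and with HESX1, in 62 where 82.7 were expected (0.750). Among pairs with at least 10 CPM each and 50 to 400 expected cells, 1 of 16 member pairs reached 1.25 and 2 were at or under 0.8, against 0.0793% and 0.075% of all such gene pairs. Members of 1 pair share cells and depth with other pairs, so these are descriptions of 1 library. The widest quotient, 1.58 for SIX6 and FEZF2, rests on 15 cells where 9.50 were expected.

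Labelled day 2 had 3 member pairs in the same window, of which 0 reached 1.25 and 0 were at or under 0.8, against 0.152% and 0.0204% of all gene pairs. They were the pairs among FEZF1, HESX1 and OTX2, with HESX1 and OTX2 in 133 cells where 110 were expected (1.21). Whatever the window, 17 pairs had at least 5 expected cells, these 3 included, and 11 of them reached 1.25, with a median of 1.31 and the highest at 2.10 for FEZF1 with FEZF2, found in 11 cells where 5.25 were expected. Without the cells of other clusters, 2 of 14 such pairs reached 1.25 and 3 were at or under 0.8, with a median of 1.12. Those 2 were SIX3 with OTX2, in 8 cells where 5.38 were expected, and LHX2 with FEZF1, in 21 where 14.99 were. The lowest quotient among the 14 pairs was 0.711. The share over all gene pairs was computed only for all kept cells within the window. The counts over 17 and 14 pairs thus have no such share beside them, rest in part on few cells, and are given as description.

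In labelled day 6 FEZF1, HESX1 and OTX2 were detected together about as often as depth gave. FEZF1 and HESX1 were found in 1685 cells where 1634 were expected, FEZF1 and OTX2 in 1772 where 1751 were, and HESX1 and OTX2 in 1187 where 1164 were. PAX6 and SIX3 were found together in 216 cells where 151 were expected (1.43), and in 182 where 132 were (1.38) without the cells of other clusters. PAX6 with LHX2 had 107 against 49.9 expected cells (2.15), and 49 against 33.5 (1.46) without those cells, and PAX6 with RAX 39 against 15.05 (2.59) and 19 against 9.14 (2.08). The quotients of PAX6 with SIX3, LHX2 and RAX thus stayed above 1.25 in cells of the library's own clusters, although the shares of RAX and LHX2 there lay under that of ACTA1. LHX2 with FEZF2 had 57 cells where 6.17 were expected (9.24), and RAX with LHX2 28 where 5.55 were (5.05), but without the cells of other clusters both pairs had under 5 expected cells. SIX3 with LHX2 went to 42 against 41.5 (1.01) without them, and FEZF2 with HESX1, at 29 against 48.7 (0.595) in all kept cells, went to 13 against 11.5 (1.13). Of 7 member pairs in the window of 50 to 400 expected cells 2 reached 1.25 and 0 were at or under 0.8, against 0.0367% and 0.00651% of all gene pairs. Joint detection with POU5F1 departed little from the expected number for HESX1, OTX2, PAX6 and SIX3. In labelled day 6 without the cells of other clusters, their quotients were 0.986, 0.997, 0.970 and 0.969. FEZF1 and POU5F1 UMIs were found in the same 2422 cells of that library where 2419 were expected.

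**Figure D5:**
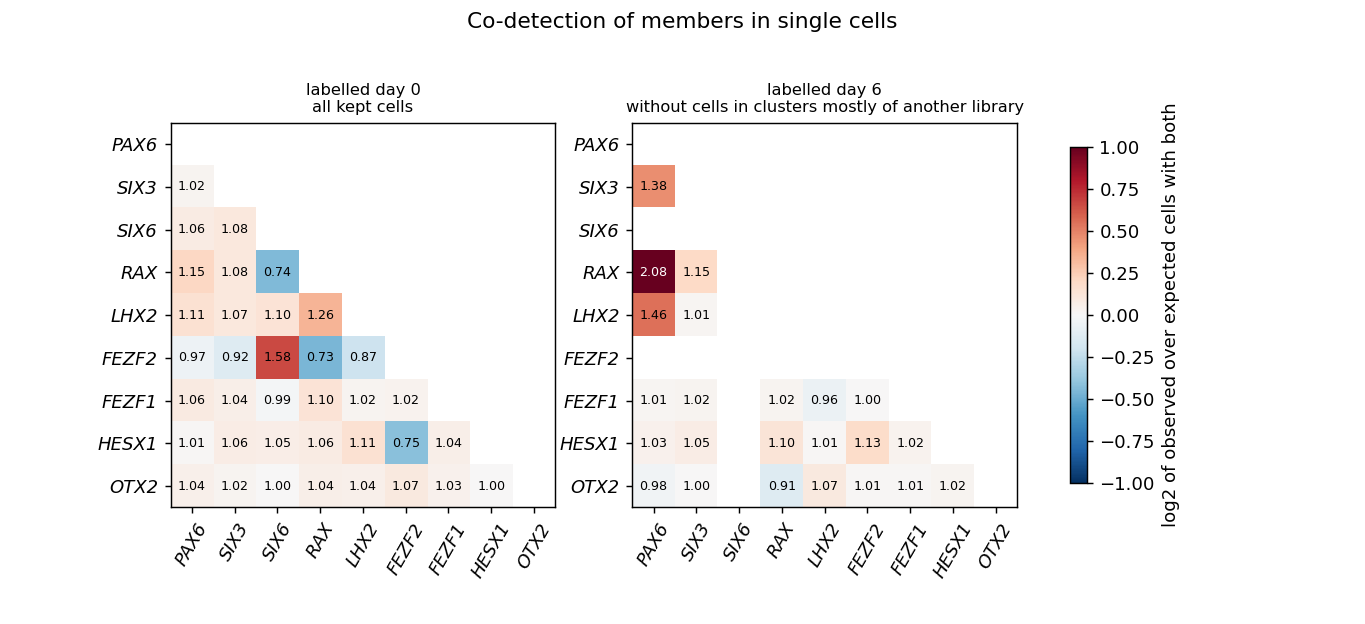
Cells with UMIs of both members of a pair over the number expected within depth bins, printed as a ratio and coloured by its log2, for all kept cells of labelled day 0 and for the 4021 cells of labelled day 6 in its own clusters; pairs with under 5 expected cells are blank. Most pairs lie near 1, with RAX and LHX2 at 1.26 and RAX and FEZF2 at 0.73 in labelled day 0, and PAX6 at 1.38 with SIX3 and 2.08 with RAX in labelled day 6.

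Genes of like order over the 3 libraries were found by the distance between profiles of log2(CPM + 1), each centred on its own mean, among genes with at least 10 CPM in a library. Nearest to PAX6 was the homeobox gene MEIS2 with 98.6, 3.10 and 13.7 CPM in labelled day 0, labelled day 2 and labelled day 6, followed by LRP2 and PRTG. Among the genes nearest to SIX3 were SOX5 and IGFBP5. RAX was nearest to ZNF385B, MAB21L2 and PTCHD4, and LHX2 to ANXA1, FBLN7 and the member FEZF2. Nearest to FEZF1 was C6orf141 with 28.6, 5.04 and 80.1 CPM, and nearest to HESX1 was TESC, a calcium-binding protein gene, with 12.0, 17.0 and 75.4 CPM. OTX2 was nearest to WWOX, EFNB1 and SRCIN1. With 3 libraries many genes share an order, and over the cells of 1 library no gene with at least 50 CPM correlated with a member above 0.0884 (Pearson's r after thinning), which in sparse counts is no finding.

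Partners of these factors were measured in part. The list of co-factors held 19 symbols that were found, among them the Groucho repressors of the TLE family, through which SIX3, HESX1 and FEZF factors can repress, and LDB and SSBP genes, whose products bind LIM-homeodomain factors. In labelled day 6 against labelled day 2, 4 of 15 measured co-factors were called higher and 2 lower, against 8.3% and 6.32% of all genes, and their median log2 ratio was 0.54 beside 0.12 over all genes. Against labelled day 0, 4 of 15 were higher in labelled day 6 (TLE1, TLE3, LDB1 and LMO1) and 2 lower (TLE4 and DACH1), beside 9.94% and 6.09% of all genes. Labelled day 2 against labelled day 0 had 3 higher and 3 lower of 12, beside 10.1% and 10.2%. TLE1 had 45.7, 119 and 172 CPM in labelled day 0, labelled day 2 and labelled day 6, and TLE4 323, 130 and 102 CPM. These TLE genes thus had opposite orders. GMNN, geminin, a partner of SIX3 in the fish medaka, was level at 112, 119 and 109 CPM. DACH1, a partner of SIX-type and EYA proteins, had 170, 14.8 and 21.6 CPM, and LMO1, a LIM-only protein gene, 2.54, 1.503 and 40.2 CPM.

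Signals bearing on the anterior neural plate were measured for 7 or 8 of 20 symbols. Besides antagonists of WNT, Nodal or BMP, the list held WNT ligands, FGF8, SHH, RSPO2, RSPO3 and the receptor FZD5, which are not antagonists. Against labelled day 2, 4 of 7 were higher in labelled day 6 (FRZB, SHISA2, FZD5 and RSPO2) and 1, SFRP2, was at most 0.5 times, beside 8.3% and 6.32% of all genes. Against labelled day 0, 0 of 8 were higher in labelled day 6 and 2, DKK1 and SFRP2, were at most 0.5 times, beside 9.94% and 6.09%. In labelled day 2 against labelled day 0, 0 of 8 were higher and 5 lower, beside 10.1% and 10.2%. SHISA2, an inhibitor of FGF and WNT receptor transport, had 178, 25.9 and 331 CPM, FZD5, a WNT receptor needed in the eye field of frog embryos, 177, 23.3 and 135 CPM, and FRZB, a secreted WNT antagonist, 110, 7.71 and 66.3 CPM. SFRP1 was high in all 3, at 715, 701 and 1292 CPM. The list medians of log2 ratios were 2.51, -0.14 and -2.59 for labelled day 6 over day 2, labelled day 6 over day 0 and labelled day 2 over day 0, beside 0.12, 0.11 and 0.0059 over all genes.

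Genes of later eye development were mostly under 10 CPM, as were most symbols of the matrices. Of 18 genes of optic vesicle, neural retina and pigment epithelium, 3, 2 and 2 reached 10 CPM in labelled day 0, labelled day 2 and labelled day 6. Over all 31113 symbols, 9140, 9337 and 9476 did so. MITF, the pigment cell factor, had 2.51, 2.96 and 0.993 CPM, and RPE65 at most 0.145 CPM. PMEL had 142, 80.0 and 70.7 CPM, SOX3 63.7, 44.2 and 30.2 CPM, and OTX1, the paralog of OTX2, 19.2, 1.41 and 2.01 CPM. Among 16 genes of midbrain, hindbrain and spinal cord, 0, 0 and 1 reached 10 CPM, beside the same counts over all symbols. That 1 was IRX3 with 9.77, 3.10 and 15.9 CPM. EN1 had no UMI in any library and no HOX gene on the list exceeded 0.0970 CPM.

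Of close paralogs that are not members, SIX4 had 16.3, 13.0 and 9.28 CPM, and PAX2, SIX2, RAX2, LHX9 and CRX stayed at or under 3.59 CPM in all 3 libraries. Reads of PAX6 could also be shared with ELP4, which is annotated on the other strand over 5550 bases of it and had 69.6, 26.0 and 50.5 CPM. LHX2 is overlapped by AC006450.1, AC006450.2 and AC006450.3. OTX2-AS1 and SIX3-AS1 do not overlap their partners and had at most 7.58 and 1.799 CPM.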

How the data were processed

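Whole-number counts per gene and barcode were deposited by the authors for 3 libraries and are read here as UMI counts, since inDrop tags molecules; that duplicates were collapsed is not stated. Per the submitters' processing notes, STAR and hg38 were used; annotation, strand setting and barcode filter: not given in the sources used here. All deposited barcodes had at least 100 genes.

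From these counts, cells were filtered at 1000 UMIs, 500 genes and 25% mitochondrial UMIs, and UMIs were summed per library and joined by symbol. No counts were modelled, since each label has 1 library: ratios carry exact conditional binomial, levels exact Poisson and shares exact Clopper-Pearson 95% intervals. A ratio of at least 2 or at most 0.5 was called where a library had at least 10 CPM. Cells were thinned to 1000 UMIs with a fixed seed, which left out no kept cell. Clusters came from scanpy 1.11.5 (2000 variable genes, 30 components, 15 neighbours, Leiden resolution 0.5, igraph 0.11.9). Scrublet called 2, 3 and 0 doublets, too few to have worked, and doublets were kept. TMM factors came from edgeR 4.0.16. Interval and co-detection code was tested on simulated data. The named genes were the members, the genes of the lists used, and the 3 nearest profiles of each member; some of these genes are not reported here. Members and lists were chosen with earlier results of these data known. Of the listed symbols, SOX10, TBXT, TLE5, HBB and 2 antisense genes were not found under current or older names.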

Additional observations from a re-analysis of the deposited data

How the results depend on the processing

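Alternatives covered cell filters, mitochondrial limits, 4 other scalings, cells of other clusters, doublet scores, the minimum level and the fold for a call, and, added after seeing the data, kept barcodes shared between libraries. Of the recomputed counts of members, 92 were within 1.5 times the reported count and 4 were not; under these alternatives no called ratio changed direction. With a minimum of 50 CPM, 3 members were higher in labelled day 6 than in labelled day 2 and 3 were lower than in labelled day 0, each in place of 5, because fewer members were counted, and 5 in place of 7 were lower in labelled day 2 than in labelled day 0. With no minimum, 1 member, SIX6, was lower in labelled day 6 than in labelled day 2, in place of 0, on 3 against 13 UMIs, of which 1 and 3 lay outside the cells of other clusters. FEZF2 made 6 higher in place of 5 there, and 6 and 8 members were lower than in labelled day 0 (labelled day 6 and day 2) in place of 5 and 7. At 4-fold, 1 member was higher in labelled day 6 than in labelled day 0, in place of 2, and 4 were lower, in place of 5; 4 in place of 5 were higher in labelled day 6 than in labelled day 2, and 6 in place of 7 lower in labelled day 2 than in labelled day 0. LHX2, whose log2 ratio of labelled day 6 over labelled day 2 was 0.99, ranged from 0.51 without the cells of other clusters to 1.8 with at most 10% mitochondrial UMIs, and passed 2-fold in 5 settings. No other member lost or gained a call under the settings that kept the minimum and fold. The log2 ratio of SIX3 (labelled day 6 over day 2) was 1.87 in place of 2.67 when CPM was averaged over cells. With another thinning depth or random seed, no thinning (shares only), or expected numbers from whole-library shares (quotients only), 49 recomputed shares and 141 quotients of joint detection moved and 32 and 53 did not. A share rises with depth, so moves with more UMIs per cell were built in. Whole-library shares leave depth out, so quotients could move for that reason alone. In labelled day 0, RAX with LHX2 ranged from 1.37 to 1.66 under these settings, and RAX with FEZF2 was 0.274 after thinning to 2000 UMIs and 0.899 from whole-library shares, in place of 0.729. FEZF1 with HESX1 there was 0.624 with another seed and 1.19 with the first, both after thinning to 1000 UMIs, and 1.04 without thinning. No paired analysis was possible because each label has 1 library. Depth limits SIX6, whose shares after thinning to 1000 UMIs were 0 of 2419 and 0 of 4180 cells in labelled day 2 and labelled day 6, which at 3 counts of the total allow up to 0.124% and 0.0718% of cells with a UMI, and by the exact Clopper-Pearson upper bound 0.152% and 0.0882%.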
